A study of Mus musculus with 10 samples.

Results

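The complement genes of a mouse tumour were examined here, from the proteins that start the cascade to the regulators and receptors that end it or read it. They were taken as every row of the deposited RNA-Seq table that held any of 33 listed complement symbols, alone or among joined gene names. The rule for rows used no measured value, but the symbols were listed with earlier results of these data known. Of these symbols 32 were found, and the remaining one, Crry, is a RefSeq synonym of the listed Cr1l. They occupied 32 rows, of which 31 were used, out of 27968 rows in all, because Masp1 had a second row that is described with the lectin pathway. A valid test was given to 24 of the 31 rows, and 7 were not tested, which in Cuffdiff happens to rows with too few reads. In 5 rows overlapping or neighbouring genes were joined under several names, and their values cannot be told apart.

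The tumours grew from C57BL/6 mouse embryonic fibroblasts with RAS and a dominant-negative p53 (RAS/DNP53), which were implanted under the skin of immune-compromised mice. Once a tumour had reached 500 mm3, an siRNA against the HA tag was given by the rectal route in the Aonys formulation, 5 times per day, and the tumour was taken 30 minutes after the last dose. In 3 tumours, of lines 12 and 14, cyclin D1 was tagged, and in 2 tumours, of lines 18 and 25, it was not, so no line is in both groups. The HA siRNA was given with all 5 tumours, so no group is untreated, and each library was run on 2 lanes. The bracketed names in the sample titles begin in 2 ways, each shared by tumours of both groups, and no label says what these stand for. Values within either set of tumours cannot be had from the table. The authors' deposited table gives 1 abundance, taken as FPKM (fragments scaled to transcript length and library size), for each of 2 conditions that it names C1 and C2. Nothing in the table or the labels says which of them is tagged, so directions below are those of condition C2 against condition C1 and none is given to the tag. These condition names have nothing to do with the complement components of the same names.

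With only 1 value per condition, no SD or n can be given, the depth is unknown, and the sources used here do not say which libraries Cuffdiff counted as replicates. A row was called where the q in the authors' deposited table, the p adjusted over all tested rows, was under 0.05. All 13 fibroblast markers that were looked up were expressed, at 11.4 to 2970 FPKM. The tagged gene itself, Ccnd1, stood at 161 and 243 FPKM in conditions C1 and C2 of the authors' deposited table (p = 0.03045, q = 0.218), and these values do not separate tagged from untagged transcripts.

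Complement is a cascade of plasma proteins that marks cells and debris for removal. The classical pathway starts when C1q binds a surface and activates the proteases C1r and C1s, the lectin pathway uses mannose-binding lectin or ficolins with the MASP proteases, and the alternative pathway amplifies the C3 fragments already laid down. All pathways cleave C3 and then C5, after which the terminal proteins build a membrane pore, and regulators on host cells and in plasma hold the cascade back. The liver makes most of the plasma proteins, whereas C1q comes largely from macrophages, and fibroblasts are among the cells that make C1r, C1s and C3 locally.

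Of the 24 tested complement rows 4 were called, all of them lower in condition C2. They were Masp1, a protease of the lectin pathway, Hc, the mouse gene for C5, the joined row C1s,Gm5077, which holds the protease C1s, and Clu, the secreted chaperone clusterin that blocks pore assembly. Among named genes with a valid test 8.35% were called, 3.39% lower and 4.96% higher, against 4 of 24 and 0 of 24 complement rows. At an unadjusted p under 0.05 in the authors' deposited table, 7 complement rows were lower and 0 higher, against 8.13% and 10.7% of named genes. At a stricter q under 0.01 the 2 rows called lower were Masp1 and Clu, against 1.85% of named genes. Values were lower in condition C2 for 21 of the 24 tested rows and for 43.5% of named genes, and the median log2 ratio was -0.41 for the complement rows and 0.07 for all named genes. The complement median was -0.21 with joined rows left out and -0.24 among rows of at least 5 FPKM. This direction was not shared evenly, since 10 of the uncalled rows lay within 0.25 of 0 on the log2 scale.

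**Figure D1:**
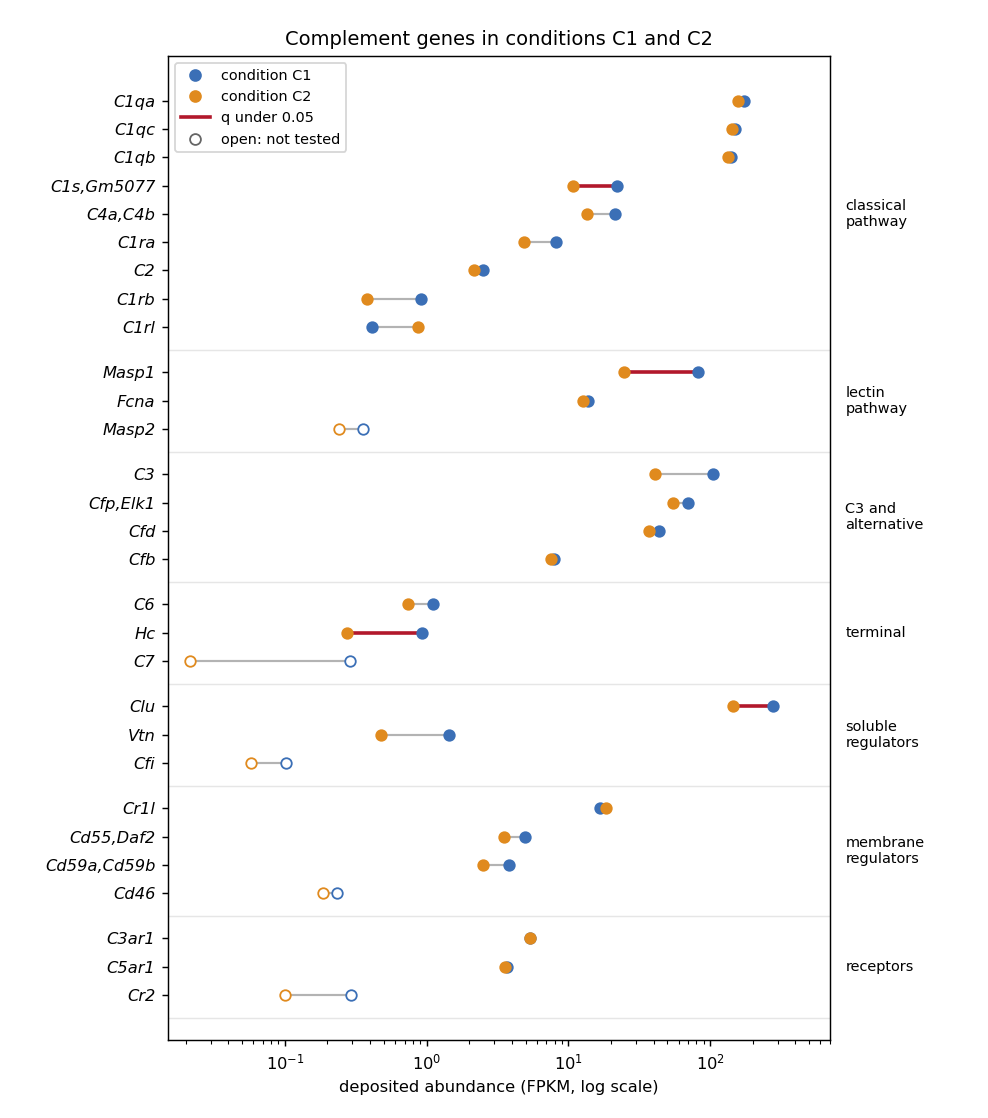
Abundance of each complement row with a value above 0 in both conditions, in FPKM on a log axis, ordered by role, with condition C1 in blue and condition C2 in orange. The 4 red lines mark rows with a deposited q under 0.05, all lower in condition C2, and open circles mark rows that were not tested, while the 3 C1q chains lie almost on top of each other.

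The abundance of the members differed far more between genes than between conditions. In condition C1 the highest was Clu, at 278 FPKM, followed by the 3 C1q chains and by C3. In condition C2 C1qa, at 156 FPKM, stood above Clu, at 144 FPKM, and Cfp,Elk1 stood above C3. In all 7 rows reached 50 FPKM in condition C1 against 5 in condition C2. At the other end 10 rows stayed under 1 FPKM in both conditions, of which 3 had a valid test. C4bp, a plasma inhibitor of C4b, and Mbl2, a mannose-binding lectin made by the liver, were listed at 0 in both conditions.

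The sequences below are the 250 bases before the transcription start of C1s and Hc, both called lower, and of the C1q chains C1qb and C1qc, both nearly level between the conditions; they are shown so that genes of the same cascade that behaved differently can be compared. They are RefSeq promoters on GRCm38.p6, whereas the deposited table uses MGSCv37, and are printed 5′ to 3′ on the strand of the gene. Capitals mark matches to any of 4 motifs searched on both strands, which are TTCNNNGAA for the STAT-binding GAS element, the interferon-stimulated response element ISRE, GAGGAAGT for the myeloid factor PU.1 and TATAAA for a TATA box; no matches overlap in the stretches shown.
C1s: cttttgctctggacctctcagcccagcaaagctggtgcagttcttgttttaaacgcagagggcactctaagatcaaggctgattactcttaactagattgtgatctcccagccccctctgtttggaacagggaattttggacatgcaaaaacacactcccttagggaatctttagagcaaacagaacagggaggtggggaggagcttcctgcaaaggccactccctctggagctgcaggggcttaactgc
Hc: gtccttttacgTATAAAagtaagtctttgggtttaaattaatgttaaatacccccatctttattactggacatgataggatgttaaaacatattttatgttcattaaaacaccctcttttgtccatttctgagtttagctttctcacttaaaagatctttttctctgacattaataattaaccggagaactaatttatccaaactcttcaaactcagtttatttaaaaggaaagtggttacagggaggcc
C1qb: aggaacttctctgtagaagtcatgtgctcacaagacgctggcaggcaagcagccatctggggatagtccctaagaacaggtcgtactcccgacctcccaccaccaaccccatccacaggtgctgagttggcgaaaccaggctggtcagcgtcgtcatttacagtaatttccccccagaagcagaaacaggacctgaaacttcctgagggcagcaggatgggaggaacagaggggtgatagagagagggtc
C1qc: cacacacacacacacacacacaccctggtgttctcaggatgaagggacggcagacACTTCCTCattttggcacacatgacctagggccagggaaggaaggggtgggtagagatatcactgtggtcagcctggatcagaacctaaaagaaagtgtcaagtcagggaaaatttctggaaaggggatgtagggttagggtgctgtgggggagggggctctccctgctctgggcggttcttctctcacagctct
C1s is named C1s1 in RefSeq, where it lies on chromosome 6 at chr6:124542322-124542571, minus strand, for the second of its 2 listed starts. Hc lies at chr2:35061413-35061662, C1qb at chr4:136886201-136886450 and C1qc at chr4:136892915-136893164, all on the minus strand. The PU.1 letters occurred once, in C1qc, beginning 195 bases before the start, and the letters TATAAA occurred in Hc, beginning 239 bases before the start. None of the 4 motifs was found in the stretches of C1s and C1qb. Of 32536 mouse promoter stretches of the same length, 7.04% held the GAS letters, 2.98% those of ISRE, 2.45% those of PU.1 and 12.3% the letters TATAAA. Of the 24 member genes with a promoter in the table, 3 held the letters of GAS, 1 of ISRE, 1 of PU.1 and 4 the letters TATAAA. Masp1 and Clu, which were also called lower, had no promoter there and could not be shown. A match is a description of letters and not of binding.

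The classical pathway begins with C1q, a protein of 3 chains whose genes lie side by side on chromosome 4. C1qa (chromosome 4, 136451830 to 136454759, MGSCv37) stood in the authors' deposited table at 175 FPKM in condition C1 and 156 FPKM in condition C2 (log2 ratio -0.16, q = 0.866). C1qb stood in the authors' deposited table at 140 and 134 FPKM (log2 ratio -0.06, q = 0.962), and C1qc at 151 and 143 FPKM (log2 ratio -0.07, q = 0.960). The chains thus differed little between the conditions and also little from each other, the ratio of C1qa to C1qb being 1.25 in condition C1 and 1.17 in condition C2.

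The proteases that C1q activates were far less abundant than C1q and had lower values in condition C2. The joined row C1s,Gm5077 (chromosome 6, 124480361 to 124586942, MGSCv37, an interval shared with C1rb) fell in the authors' deposited table from 21.9 to 10.8 FPKM, a log2 ratio of -1.03 (p = 0.0018, q = 0.0297). C1ra, the main C1r gene, which cleaves C1s, stood in the authors' deposited table at 8.20 and 4.89 FPKM (log2 ratio -0.74, p = 0.04205, q = 0.262), and was not called. C1rb, its close copy, stood in the authors' deposited table at 0.907 and 0.380 FPKM (q = 0.856). The level of C1qb was 6.37 times that of C1s in condition C1 and 12.4 times in condition C2, whereas the ratio of C1s to C1ra was 2.68 and 2.20.

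Reads of these proteases may be split between near-identical copies. RefSeq lists Gm5077 as a synonym of C1s2, and the longest GENCODE transcripts of C1s1 and C1s2 were 95.9% identical over 2643 aligned bases. For C1ra and C1rb the identity was 97.9% over 2431 bases. How reads that map to both copies were shared out is not given, so the values of single copies are uncertain. C1rl, a C1r-like protease of the same cluster, was the tested member with the highest log2 ratio, 1.09, for which the authors' deposited table lists 0.410 and 0.876 FPKM (q = 0.396), and was not called.

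The next proteins of the classical pathway are C4 and the component C2, which together form its C3 convertase, and both genes lie in the MHC class III region of chromosome 17. The joined row C4a,C4b stood in the authors' deposited table at 21.2 FPKM in condition C1 and 13.5 FPKM in condition C2 (log2 ratio -0.65, q = 0.504). C4a, the sex-limited protein Slp, and C4b share 95.9% of 5378 aligned transcript bases and cannot be told apart in this row. The gene for complement component C2 stood in the authors' deposited table at 2.52 and 2.18 FPKM (log2 ratio -0.21, q = 0.921). In the interval that these rows span, the non-members Stk19, Dom3z, Skiv2l and Nelfe had log2 ratios of 0.22, 0.34, 0.12 and 0.35. The tenascin gene Tnxb, which overlaps the interval, had -0.76, and none of these was called. Cyp21a1, also in the interval, was listed in the authors' deposited table at 0.567 and 0.00867 FPKM and was not tested.

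The lectin pathway held the member with the smallest p. Masp1, whose gene encodes the proteases MASP-1 and MASP-3 and the inhibitor MAp44 (chromosome 16, 23451857 to 23588342, MGSCv37), fell in the authors' deposited table from 81.6 to 24.6 FPKM. The value in condition C2 was 3.31-fold lower (log2 ratio -1.73), and the authors' deposited table gives p = 5e-05 and q = 0.0016681. Within condition C1 Masp1 stood above 92.0% of all tested named genes, and within condition C2 above 70.7%. The smallest p that Cuffdiff gave, 5e-05, was shared by 500 rows of the table, of which Masp1 was the only one among the listed complement symbols.

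A second row named Masp1 in the same interval stood in the authors' deposited table at 13.2 and 6.46 FPKM (log2 ratio -1.04, p = 0.37445, q = 0.771). Row identifiers run along each chromosome strand by strand: the 16 named rows within 10 identifiers of the first Masp1 row all lie on the minus strand, as Masp1 does, and the 19 around the second all lie on the plus strand. The second row is therefore listed among rows of the strand opposite to the gene. The libraries were stranded per the labels' protocols, but no source used here gives the strand setting of the quantification. Reads from the gene and from an antisense transcript can accordingly not be separated with certainty, and both rows had lower values in condition C2.

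Of the listed recognition proteins that MASP proteases ride on, only Fcna was tested, and it was not called. Mbl2, at 0 in both conditions, was not tested. Fcna, a ficolin made by macrophages, stood in the authors' deposited table at 13.7 FPKM in condition C1 and 12.8 FPKM in condition C2 (log2 ratio -0.10, q = 0.961). Masp2, the protease that cleaves C4 and the component C2, was listed in the authors' deposited table at 0.355 and 0.240 FPKM and was not tested. The level of Masp1 was 230 times that of Masp2 in condition C1 and 103 times in condition C2.

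C3, the protein on which all pathways meet, stood in the authors' deposited table at 105 FPKM in condition C1 and 40.7 FPKM in condition C2 (chromosome 17, 57343389 to 57367559, MGSCv37). The value in condition C2 was 2.58-fold lower, a log2 ratio of -1.37, but with p = 0.01835 and q = 0.154 in the authors' deposited table C3 was not called. Its partner in the alternative convertase, factor B, behaved otherwise in value: Cfb stood in the authors' deposited table at 7.90 and 7.57 FPKM (log2 ratio -0.06, q = 0.974). Whether the changes of C3 and Cfb differ was not tested, since the table has no values per tumour.

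Factor D, which cleaves factor B, and properdin, which stabilises the convertase, were abundant and not called. Cfd, also known as the adipocyte product adipsin, stood in the authors' deposited table at 43.7 and 37.0 FPKM (log2 ratio -0.24, q = 0.832). Properdin was in the joined row Cfp,Elk1, which stood in the authors' deposited table at 69.6 and 55.1 FPKM (log2 ratio -0.34, q = 0.811). Elk1 is a transcription factor gene that lies next to Cfp on the X chromosome, and its share of that row is unknown.

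The terminal pathway was low in both conditions. Hc (chromosome 2, 34838850 to 34922446, MGSCv37) fell in the authors' deposited table from 0.925 to 0.273 FPKM, a 3.39-fold lower value with a log2 ratio of -1.76 (p = 0.00195, q = 0.0313). Hc stood above only 6.45% of tested named genes in condition C1 and above 1.00% in condition C2. With a pseudocount of 1 FPKM its log2 ratio was -0.60. C6, which binds C5b in the forming pore, stood in the authors' deposited table at 1.12 and 0.744 FPKM (log2 ratio -0.59, q = 0.679). C7, the next protein to join, was listed in the authors' deposited table at 0.288 and 0.0213 FPKM and was not tested.

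**Figure D2:**
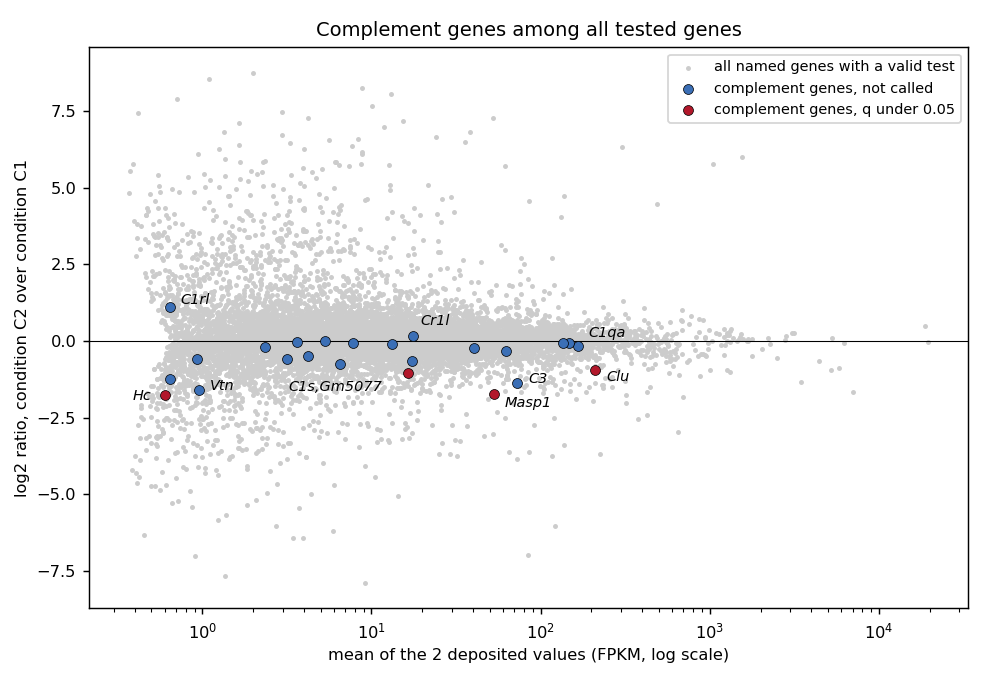
Log2 ratio of condition C2 over condition C1 against the mean of both deposited values, in FPKM on a log axis, for all named genes with a valid test (grey) and for the 24 tested complement rows (blue, or red where q was under 0.05). Masp1, Clu and C1s,Gm5077 were called at moderate to high abundance and Hc at the low end, and most complement rows lie below 0.

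Of the soluble regulators Clu changed and the others did not pass the threshold. Clu (chromosome 14, 66587319 to 66600384, MGSCv37) fell in the authors' deposited table from 278 to 144 FPKM, a 1.93-fold lower value with a log2 ratio of -0.95 (p = 3e-04, q = 0.00748). It stood above 98.1% of tested named genes in condition C1 and above 95.9% in condition C2, so it was among the most abundant transcripts of both. Vtn, vitronectin, which like clusterin keeps the pore complex out of membranes and is also an adhesion protein, stood in the authors' deposited table at 1.43 and 0.474 FPKM (log2 ratio -1.59, p = 0.01005, q = 0.104). Cfi, the protease that inactivates C3b and C4b, was listed in the authors' deposited table at 0.102 and 0.0579 FPKM and was not tested.

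The regulators that host cells carry on their surface were not called. Cr1l, the rodent protein Crry that limits C3 convertases on nearly all mouse cells, was the most abundant of them, at 16.6 FPKM in condition C1 and 18.5 FPKM in condition C2 of the authors' deposited table (log2 ratio 0.16, q = 0.918). The row Cd55,Daf2, which joins both genes of decay-accelerating factor, stood in the authors' deposited table at 4.91 and 3.50 FPKM (log2 ratio -0.49, q = 0.670). The row Cd59a,Cd59b, for the inhibitors of the last step of the pore, stood in the authors' deposited table at 3.78 and 2.52 FPKM (log2 ratio -0.59, q = 0.653). Cd46, which in mice is found mainly in testis, was listed in the authors' deposited table at 0.234 and 0.186 FPKM and was not tested.

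The tested receptors for the fragments that complement releases, C3ar1 and C5ar1, had nearly the same value in both conditions. C3ar1, the receptor for C3a, stood in the authors' deposited table at 5.33 and 5.35 FPKM (log2 ratio 0.01, and -0.050 after re-centring on the median of tested rows, q = 0.997). C5ar1, the receptor for C5a, stood in the authors' deposited table at 3.70 and 3.60 FPKM (log2 ratio -0.04, q = 0.986). Cr2, the receptor for C3 fragments on B cells and follicular dendritic cells, was listed in the authors' deposited table at 0.295 and 0.1002 FPKM and was not tested.

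A pseudocount showed which of these ratios rest on low values. For Masp1, C3, C1s,Gm5077 and Clu the log2 ratio with a pseudocount of 1 FPKM was -1.69, -1.34, -0.96 and -0.94, close to the values without one. For Vtn, C1rb and C1rl it was -0.72, -0.47 and 0.41.

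**Figure D3:**
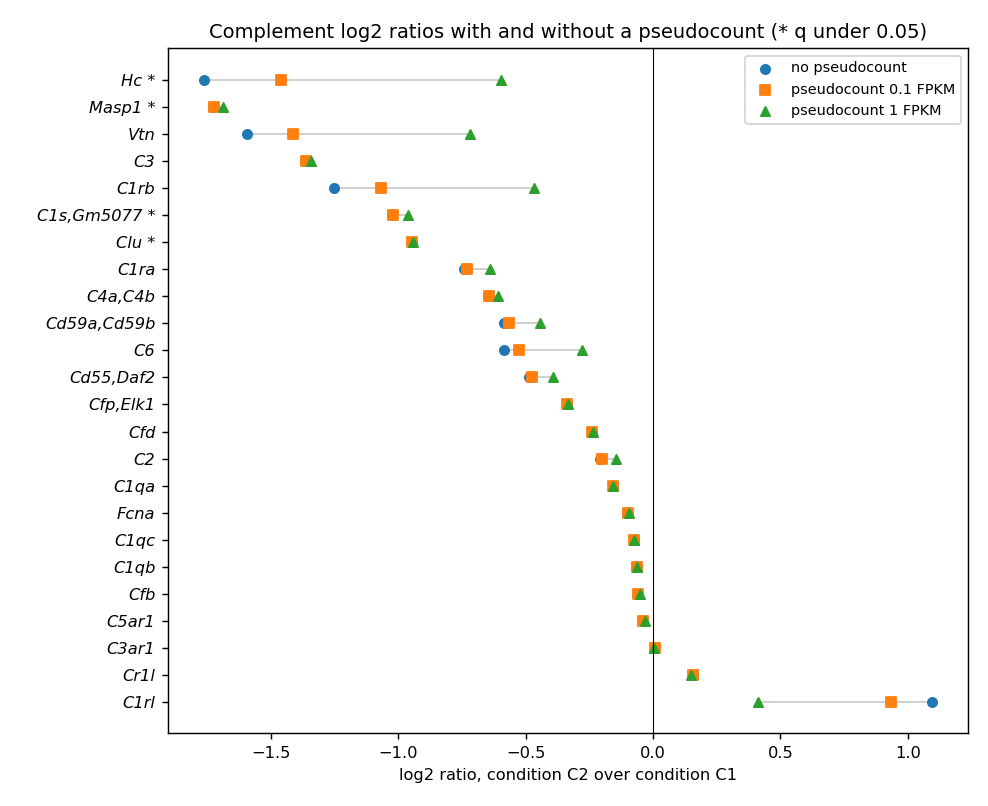
Log2 ratio of condition C2 over condition C1 for the 24 tested complement rows without a pseudocount and with 0.1 or 1 FPKM added to both values; a star marks a deposited q under 0.05. Hc, Vtn, C1rb and C1rl move towards 0, from -1.76 to -0.60 for Hc, while Masp1, C3 and Clu hardly move.

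Complement genes outside the listed symbols were taken from a list of 32 further symbols, which gave 29 rows beside those already described, 13 of them tested. Of these 2 were called lower and 0 higher in condition C2, against 3.39% and 4.96% of named genes. At an unadjusted p under 0.05 in the authors' deposited table, 5 were lower and 0 higher, against 8.13% and 10.7% of named genes. The median log2 ratio of the 13 rows was -0.32. One of the called genes was Thbd, thrombomodulin, an endothelial anticoagulant that also promotes C3b inactivation, which fell in the authors' deposited table from 87.4 to 36.8 FPKM (log2 ratio -1.25, q = 0.0016681). The most abundant uncalled row of this list was Calr, calreticulin, a chaperone that binds C1q, for which the authors' deposited table lists 572 and 541 FPKM (q = 0.960). The pore proteins C8a, C8b, C8g and C9 and the lectins Mbl1 and Fcnb were among the 16 rows that were not tested.

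The authors' own enrichment test listed the term complement activation. In the authors' deposited table from BiNGO, 5 of 34 genes of that term were among the 1004 called genes with an annotation, out of 28912 annotated genes (p = 0.00603, corrected p = 0.0271). Of these 5, Masp1, Hc and C1s are members described above. The reference of that test was the whole annotation, per the file header, rather than the genes that could be measured here. Clu is not among the genes the authors' table gives for this term.

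Complement transcripts in a dissected tumour can come from several cell types, and in bulk RNA fewer cells of a type and less RNA per cell cannot be told apart. Markers of such cells were set beside the members, with 10 lists in all and no gene shared with the listed symbols. Of 15 macrophage rows 0 were called lower and 1 higher, Cd14, which went in the authors' deposited table from 22.8 to 49.8 FPKM, and the median log2 ratio was -0.13. Their summed level was 675 FPKM in condition C1 and 620 FPKM in condition C2, with Emr1 (F4/80) at 4.62 FPKM in both conditions of the authors' deposited table. The C1q chains, Fcna, C3ar1 and C5ar1, genes known from macrophages, had log2 ratios between -0.16 and 0.01. Of the further complement genes, Vsig4 had a log2 ratio of -1.22 (q = 0.191 in the authors' deposited table). Itgam, which is also on the macrophage list, had -0.32 (q = 0.763 in the authors' deposited table). Neither was called, and 4 of the 13 tested further complement rows had higher values in condition C2. The part of macrophages in these values was not tested.

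Fibroblast markers all had lower values in condition C2. The implanted cells were themselves embryonic fibroblasts, so these markers cannot separate them from fibroblasts of the host. Of 13 rows 7 were called lower and 0 higher, with a median log2 ratio of -1.04 and a summed level of 9454 FPKM in condition C1 and 4697 FPKM in condition C2. Thy1, Lum and Mmp2 had the lowest log2 ratios of the called rows, -2.97, -1.90 and -1.76. Col1a1 was among the called rows with a log2 ratio of -0.15 from its values, although the fold in the authors' deposited table was -1.07 on the log2 scale; for complement rows the same pair of numbers differed by at most 9.45e-06. Of 13 epithelial markers 9 were called higher and 0 lower, with a median of 3.03. Clu, which many epithelia and fibroblasts also make, was lower in condition C2, where 10 of the 13 epithelial markers had higher values. The epithelial rows Krt5 and Krt14,Krt42 had lower values there, as Clu did, with log2 ratios of -2.93 and -1.23. Neither row was called. Krt18 was nearly level, with a log2 ratio of -0.0038. The part of either cell type in the complement values was not tested.

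Lymphoid, fat, vessel, neutrophil and liver markers were looked up in the same way. Of 5 tested B cell and follicular dendritic cell markers 3 were called lower, among them Cd79a and Cd79b with log2 ratios of -3.24 and -2.91, and the summed level of the 7 rows found went from 9.86 to 1.29 FPKM; Cr2 was at 0.295 and 0.1002 FPKM. Of 8 tested adipocyte markers 2 were called lower, Lpl and Car3, with a median of -0.60, beside the log2 ratio of -0.24 for Cfd, and Adipoq stood in the authors' deposited table at 8.55 and 5.73 FPKM. Among 9 endothelial markers 1 was called in each direction, Cdh5 higher and Tek lower, and the median was -0.61, beside -1.25 for Thbd. Of 7 tested neutrophil markers 0 were called at q under 0.05, while 3 were lower and 1 higher at an unadjusted p under 0.05, and their median was -0.91. For the liver markers the authors' deposited table lists Alb at 0.359 and 1.41 FPKM and Ttr at 0.0299 and 0 FPKM, and the median of 5 tested rows was -0.69. Trf, which is not limited to liver, was the 1 liver marker called, higher in condition C2. The part of these cells in the complement values was not tested.

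Interferon and acute-phase programmes, which are known to raise complement genes such as C1r, C1s, C3, C4 and factor B in many cells, were looked up as well. Of 20 interferon-stimulated genes 12 were called higher and 0 lower in condition C2, with a median log2 ratio of 1.42. Rsad2, Irf7 and Isg15 had the largest changes, with log2 ratios of 3.12, 2.49 and 2.29. Over the same comparison 0 of the 24 complement rows were called higher, against 4.96% of named genes. C1ra, C1rb, C1s,Gm5077, C3, C4a,C4b and Cfb had log2 ratios of -0.74, -1.25, -1.03, -1.37, -0.65 and -0.06. Only C1s,Gm5077 among them was called. Of 12 tested acute-phase and NF-kB genes 1 was called higher, Lcn2, with a log2 ratio of 5.99, and 0 lower, and the list's median was -0.20. Whether either programme acted on the complement genes was not tested.

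**Figure D4:**
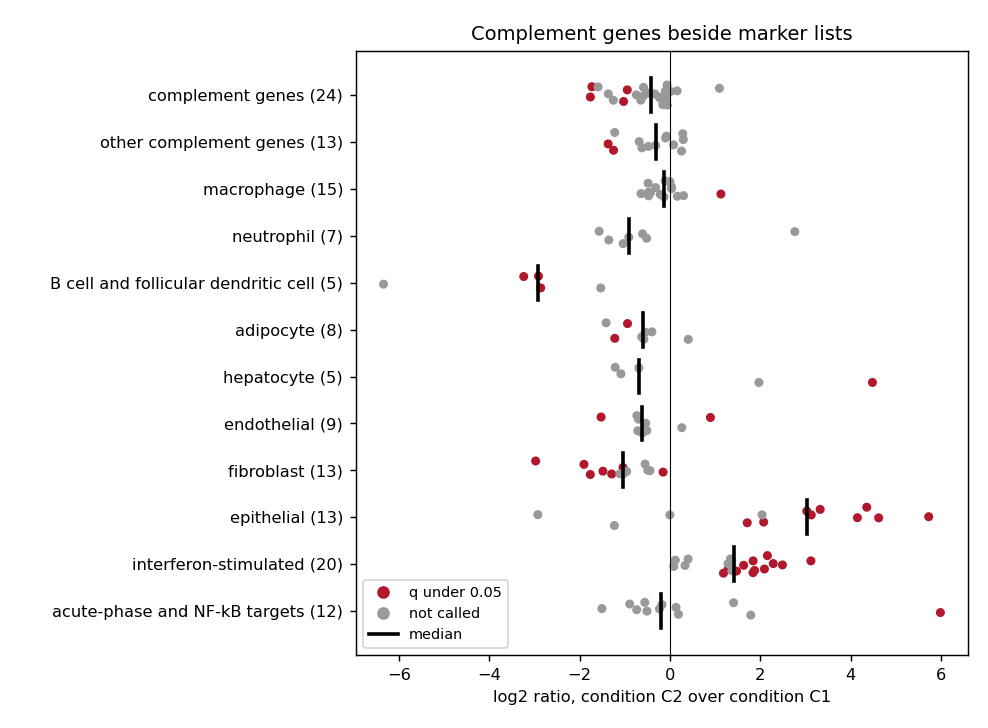
Log2 ratio of condition C2 over condition C1 for each tested gene of the complement rows, the other complement genes and the 10 marker lists, with the number tested in brackets, red where the deposited q was under 0.05 and a black bar at the median. The complement medians of -0.41 and -0.32 lie below the macrophage and acute-phase medians of -0.13 and -0.20. Below them lie the adipocyte, endothelial, liver, neutrophil, fibroblast and B cell medians of -0.60, -0.61, -0.69, -0.91, -1.04 and -2.91. The medians of the epithelial and interferon-stimulated lists, 3.03 and 1.42, lie above 0, with 3 of the 13 epithelial genes below it. Itgam is in both the macrophage list and the other complement genes. The complement median was -0.21 without joined rows.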

How the data were processed

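Messenger RNA of 5 tumours was measured by stranded single-read sequencing of 100 bases, per the labels' protocols. Per the series' design text, the authors mapped reads to MGSCv37 with Bowtie and TopHat and called abundance and differential expression with Cufflinks. Versions in the submitters' processing notes are Cufflinks 2.1.1, TopHat2 2.0.8b and CASAVA 1.8.2. Columns of the deposited table are those Cuffdiff writes, and its values are taken as FPKM on that ground, as its header names no unit. All p-values and q-values come from the authors' deposited table, and a Benjamini-Hochberg adjustment over the tested rows gave each q to within 5.17e-07. Of all rows 11286 were not tested and 1 was left out by Cuffdiff for too many reads. Depth per tumour is unknown.

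Log2 ratios were computed from the deposited values with no pseudocount. Where a symbol had several rows the one with the highest mean was used, and joined rows entered only once, giving 13280 named genes with a valid test as background. Every listed member is named, and of the other complement genes the called ones and the most abundant uncalled one. Of a marker list at most 3 called members by absolute log2 ratio, or its most abundant member, are named. Further genes (Emr1, Vsig4, Itgam, Adipoq, Alb, Ttr, Col1a1, Krt5, Krt14,Krt42, Krt18 and the neighbours on chromosome 17) were named after their values were seen. Some genes that this rule names are not reported here. The members and lists were chosen with earlier results of these data known. Alternatives were q of 0.01 and 0.1, minimums of 1 and 5 FPKM, pseudocounts of 0.1 and 1, a minimum of 2-fold, the deposited fold, re-centring by 0.06, and other treatments of joined or repeated rows. Sequences are from RefSeq and transcripts from GENCODE M21 (aligned with blastn), both GRCm38. The code for counts and adjustments was tested on simulated data. Python 3.11.15 was used, with matplotlib 3.10.9, SciPy 1.17.1, pandas 2.3.3 and numpy 2.4.6.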

Additional observations from a re-analysis of the deposited data

How the results depend on the processing

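No paired analysis was possible because values of single tumours were not in the table used here, and leaving out each replicate was likewise not run. At q under 0.01, 2 complement rows were called, both lower in condition C2 (Masp1 and Clu). Under the other settings 3 or 4 were called lower and 0 higher; Hc lost its call under a minimum of 1 FPKM and C1s,Gm5077 when joined rows were left out, and Clu, at 1.93-fold, under a minimum of 2-fold. The further complement genes gave 2 or 3 calls, all lower. The median log2 ratio of the complement rows was -0.31 with a pseudocount of 1, -0.24 among rows of at least 5 FPKM and -0.21 without joined rows, and the cause was not tested. Re-centring moved C3ar1 from 0.01 to -0.050, and no other member changed sign under the pseudocounts, re-centring or the deposited fold.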
